A study of Mus musculus with 3 samples.

Results

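Megakaryocyte and platelet genes were examined in bone marrow progenitor cells of mice that carry an LSD1 transgene. The set holds 9 genes listed by function: Pf4, Ppbp, Itga2b, Gp9, Gp1ba, Gp6, Vwf, Treml1 and Fli1. Of these, 8 had a probe set assigned to that gene alone, 9 probe sets in all among the 45037 on the arrays, and no probe set was paired with Gp1ba. The cells came from the bone marrow of 10-week old C57BL/6J mice and were selected for Sca-1 and against lineage markers, and each genotype was hybridised to 1 Affymetrix array. The 3 genotypes were wild type, the transgenic Line 6 and the transgenic Line 3, whose labels both read Tg(Ly6a-KDM1A*v2. KDM1A encodes the histone demethylase LSD1, and Ly6a, the other gene in the construct's name, encodes Sca-1, the antigen used to select the cells. How many mice gave each RNA and which cells express the transgene are not stated in those labels. With 1 array in each group, no difference has a replicate error, a standard error or a p-value, and a value may hold the particulars of 1 RNA preparation.

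Megakaryocytes arise from stem cells and bipotent progenitors in the marrow and shed platelets. Platelet alpha granules store the CXC chemokines Pf4 and Ppbp and the adhesive protein Vwf, and the platelet surface carries the fibrinogen receptor (Itga2b with Itgb3), the von Willebrand factor receptor (Gp1ba, Gp1bb, Gp9 and Gp5) and the collagen receptor Gp6. Transcription of these genes depends on GATA factors, mainly Gata1, and on ETS factors such as Fli1. Part of the stem cell pool already expresses Vwf, Itga2b and Pf4, so such transcripts are not limited to mature megakaryocytes, and Vwf and Fli1 are also endothelial genes.

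The promoters of 3 members are shown because they stand for the patterns in the data: Pf4 and Ppbp, which are neighbours on chromosome 5 and read highest in Line 6, and Itga2b, which read highest in Line 3. Each runs from 250 bases before the annotated start to 30 bases after it, 5′ to 3′ on the gene's strand, from RefSeq (GRCm38.p6). Capitals mark letters of a GATA motif (AGATAA or TGATAA or AGATAG or TGATAG) or of an ETS motif (CCGGAA or CAGGAA), searched on both strands, and no match overlapped another. The Pf4 window is chr5:90772185-90772464 (+), that of Ppbp chr5:90768268-90768547 (+), and that of Itga2b chr11:102469854-102470133 (-).
Pf4: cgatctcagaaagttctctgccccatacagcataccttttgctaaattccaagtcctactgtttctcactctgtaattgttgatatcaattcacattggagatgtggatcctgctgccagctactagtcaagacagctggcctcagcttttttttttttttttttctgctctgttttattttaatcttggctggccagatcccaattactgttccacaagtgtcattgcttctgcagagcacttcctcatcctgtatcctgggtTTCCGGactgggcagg
Ppbp: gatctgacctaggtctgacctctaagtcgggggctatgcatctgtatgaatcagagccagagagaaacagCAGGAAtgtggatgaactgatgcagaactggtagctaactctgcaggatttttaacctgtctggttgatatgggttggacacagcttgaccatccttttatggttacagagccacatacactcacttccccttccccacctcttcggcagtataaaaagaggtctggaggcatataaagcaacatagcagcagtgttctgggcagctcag
Itga2b: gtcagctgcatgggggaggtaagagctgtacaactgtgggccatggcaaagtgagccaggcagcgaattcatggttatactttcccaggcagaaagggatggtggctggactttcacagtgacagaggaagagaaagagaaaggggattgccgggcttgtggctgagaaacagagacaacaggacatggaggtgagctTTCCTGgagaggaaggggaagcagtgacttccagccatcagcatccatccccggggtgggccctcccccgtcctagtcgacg

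Each of these windows holds 1 ETS motif, CAGGAA on the gene's strand in Ppbp, its reverse complement TTCCTG in Itga2b, and TTCCGG, the reverse complement of the other ETS letters, 15 bases into the Pf4 transcript. A GATA motif, AGATAA, began at base 37 of the Pf4 transcript, past the stretch printed. The motifs were searched in the full 300 bases of the table, which run to 50 bases after the start. A GATA motif was present in 3 of the 7 members that the promoter table holds and an ETS motif in 5, against 29.6% and 41.3% of 32544 distinct promoter sequences of that length. These are letter matches, with no measurement of binding.

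The arrays carried transcripts of progenitor genes together with those of genes of maturing cells. Progenitor genes such as Kit, the stem cell factor receptor (603 for wild type, 899 for Line 6 and 923 for Line 3), and Cd34 (971, 1838 and 2315) were well above the array medians, which were 96.2 for wild type, 116 for Line 6 and 99.0 for Line 3. Not all stem and progenitor genes were. Procr (32.3, 130 and 194) and Mecom (69.6, 260 and 286) lay below the median in wild type, and Slamf1 (25.0, 51.1 and 31.6) on every array. Ly6a itself had no probe set assigned to it alone. Camp, a neutrophil granule gene (17667 in wild type), and Slc4a1, the red cell anion exchanger (12742), were bright, although the cells were taken as lineage-negative. Summed over 16 neutrophil markers, intensity was 199021 for wild type, 148645 for Line 6 and 130376 for Line 3. Summed over 16 macrophage markers it was 15198, 19263 and 22099, and over 11 B lineage markers 5240, 16215 and 7812. Among the macrophage markers, Csf1r (7100, 5825 and 6468), Cd68 and Slc40a1 were highest in wild type. Adgre1, Siglec1 and Marco were highest in Line 6 and the others in Line 3, with Marco and Timd4 below the filter. No listed marker of these cell types was at 0, but neither was any probe set, the lowest being 0.040 for wild type, 0.038 for Line 6 and 0.019 for Line 3. A value above 0 therefore does not show that a cell type was present. Kdm1a read 2104, 2575 and 2979, and whether its mouse probe set also reads the transgene is not stated. The female-specific RNA Xist read 2729, 6152 and 5155, and the Y-linked Eif2s3y 2325, 978 and 1031, so the wild type array differed from both lines in sex-linked RNA as well as in genotype. The part of sex or of these cell types in the values below was not tested, and in RNA from a mixed fraction, more cells of a type and more RNA per cell cannot be told apart.

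Granule genes read highest in Line 6. Pf4, which encodes platelet factor 4, had an intensity of 693 for wild type, 1609 for Line 6 and 1024 for Line 3. Both lines lay above wild type, Line 6 the more so. On the log2(intensity + 16) scale, which damps differences of dim genes, Pf4 exceeded wild type by 1.20 in Line 6, a 2.29-fold difference, and by 0.55 in Line 3. It ranked 164th from the top of the 10864 genes that passed the filter on low values (1 array or more at or above its median) in Line 6, and 1824th in Line 3. After each array was centred on its median, the Line 6 difference was 0.96, inside 2-fold.

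Ppbp, the gene of pro-platelet basic protein, read 189 for wild type, 363 for Line 6 and 185 for Line 3. The wild type and Line 3 values were almost equal and the Line 6 value stood above both. The differences from wild type were 0.89 in Line 6 and -0.03 in Line 3, and Line 3 lay -0.92 from Line 6, the 214th lowest of 10864 genes in that comparison. Pf4 likewise lay lower in Line 3 than in Line 6, by -0.64.

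Vwf, the carrier of coagulation factor VIII and ligand of the Gp1ba complex, read 99.0 for wild type, 187 for Line 6 and 119.7 for Line 3. Wild type and Line 3 lay close to their array medians, so these values are near the lower end of what the filter kept. The differences were 0.82 in Line 6 and 0.24 in Line 3, with Line 3 -0.58 from Line 6. The 3 granule genes therefore had the order Line 6 above Line 3 in common. The summed B lineage, erythroid and neutrophil markers had that order too, although the neutrophil sum was highest in wild type. Summed over 15 erythroid markers, intensity was 55502 for wild type, 57950 for Line 6 and 49690 for Line 3. Of the 14 erythroid markers above the filter, 10 were lower in Line 3 than in Line 6. The other 4 (Epor, Klf1, Car1 and Car2) were highest in Line 3. The summed macrophage and endothelial markers (1855 for wild type, 3055 for Line 6 and 3412 for Line 3 over 14 endothelial genes, 4 of them below the filter) were highest in Line 3. The brightest endothelial marker was Pecam1 (693, 1118 and 1488). Of the 10 endothelial genes above the filter, 6 were higher in Line 3 than in Line 6, while Cdh5, Stab2, Flt4 and Flt1 were lower. Kdr and Plvap, below the filter, were lower in Line 3 too.

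**Figure D1:**
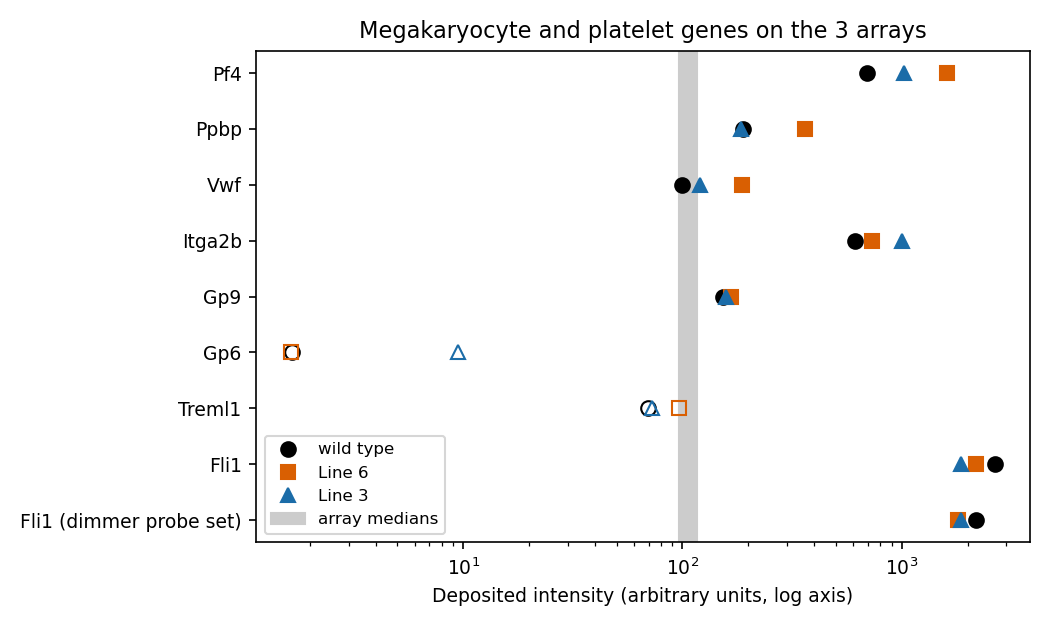
Deposited intensity (log axis, arbitrary units) of each probe set of the 8 measured genes on the wild type, Line 6 and Line 3 arrays, 1 point per array; open symbols mark genes below the filter on low values, and the grey band spans the 3 array medians. Pf4 (693, 1609 and 1024), Ppbp and Vwf are highest in Line 6, Itga2b is highest in Line 3 and Fli1 is highest in wild type.

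Receptor genes had no common order. Itga2b, the alpha chain of the fibrinogen receptor (CD41), read 613 for wild type, 733 for Line 6 and 1001 for Line 3. Line 3 was the highest array for this gene, not Line 6. The differences from wild type were 0.25 in Line 6 and 0.69 in Line 3, and the Line 6 value was 0.02 after centring on array medians. The summed mast cell and basophil markers were also highest in Line 3. Over 10 genes the sum was 13912 for wild type, 13305 for Line 6 and 24112 for Line 3. Of these genes, Hdc was highest in wild type (6211, 3677 and 4343). Cma1 and Tpsb2, both below the filter, were highest in Line 6. The part of these markers in the Itga2b value was not tested.

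Gp9, the small subunit of the von Willebrand factor receptor, read 153 for wild type, 166 for Line 6 and 159 for Line 3. The 3 arrays were within 1.08-fold of one another in intensity. The differences of 0.10 in Line 6 and 0.04 in Line 3 turned to -0.13 in Line 6 after centring and ranged from -0.04 to 0.05 in Line 3 over the settings tried, so no direction was settled.

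The other receptor members were too dim to compare. Treml1, a receptor stored in alpha granules, read 69.9 for wild type, 96.1 for Line 6 and 72.6 for Line 3, each below its array's median. Gp6, the collagen receptor gene, read 1.65, 1.64 and 9.49, in a range where 22.5% to 24.4% of probe sets on each array lay below 16. No detection calls were used here, so these intensities cannot be told from background.

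Fli1 read highest in wild type on both of its probe sets. The brighter read 2657 for wild type, 2183 for Line 6 and 1857 for Line 3, differences of -0.28 and -0.51. The dimmer read 2179, 1811 and 1872, differences of -0.27 and -0.22. Both lines were below wild type on either probe set, by less than 1.5-fold, while the order of the lines differed between the probe sets.

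Counted together, 1 of the 6 members above the filter, Pf4, exceeded wild type by 2-fold or more in Line 6 and none was lower by as much, against 2.57% of 10864 genes higher and 2.41% lower. In Line 3 none of the 6 passed 2-fold in either direction, against 3.57% higher and 4.46% lower. Between Line 3 and Line 6 none passed, against 0.709% higher and 1.58% lower. At a limit of 1.5-fold, Pf4, Ppbp and Vwf were higher in Line 6, where 9.27% of genes were, and Itga2b was higher in Line 3, where 15.1% were. At that limit Pf4 and Ppbp were lower in Line 3 than in Line 6, as were 5.23% of genes. All 6 lay at or above the median on every array, so none was kept only through the group where it was high. Their median difference was 0.54 in Line 6, 0.14 in Line 3 and -0.41 between Line 3 and Line 6, beside 0.06, 0.12 and 0.05 over all genes. Over the settings tried the member median ranged from 0.25 to 0.58 in Line 6, from 0.06 to 0.55 in Line 3 and from -0.44 to -0.21 between them. With the filter at percentile 75, which left 3 members, the Line 3 median (0.55) exceeded that of Line 6 (0.25). The wild type array served as the base of both lines, whose values are therefore not independent.

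**Figure D2:**
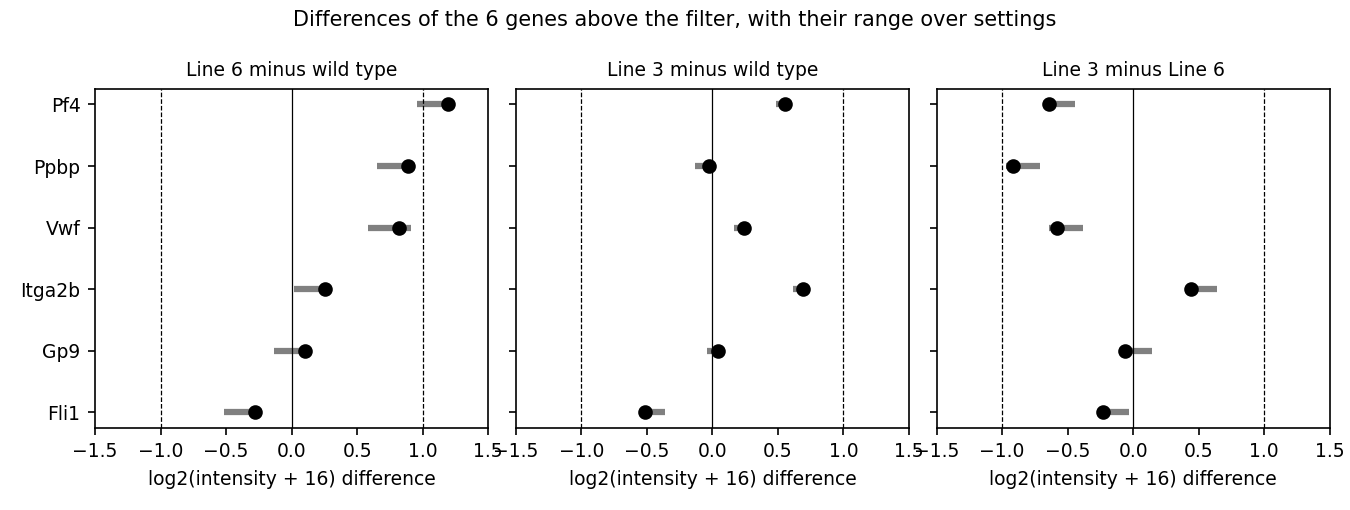
Differences on the log2(intensity + 16) scale of the 6 genes above the filter in 3 comparisons; black points are the values reported, grey bars span them and their values over 11 alternative settings, and dashed lines mark 2-fold. Pf4 in Line 6 (1.20) is the 1 point past a dashed line, and the bars of Gp9 cross 0 in each comparison.

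Genes with the pattern nearest to Pf4, by Euclidean distance over the pair of line minus wild type differences on the 3 arrays, were Reln (1.21 in Line 6 and 0.55 in Line 3), Dusp4 (1.14 and 0.60) and Atp2b4 (1.23 and 0.63).

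Partners and regulators of the members gave mixed values. Itgb3, the beta chain that pairs with Itga2b, read 1764 for wild type, 1721 for Line 6 and 1561 for Line 3 on its brighter probe set. It was lowest in the line where Itga2b was highest, although Line 3 lay 0.06 above Line 6 after centring on array medians. Its dimmer probe set read 108, 132 and 93.0, and the probe sets disagreed on the direction in Line 6 (-0.04 and 0.25). Gp1bb, the beta subunit beside Gp1ba, read 139.8, 179.8 and 123.8 on its brighter probe set and 130.2, 102.3 and 66.0 on the other, and the probe sets disagreed on the direction in Line 6 (0.33 and -0.31). Gp5, the remaining subunit of that receptor, read 54.5, 126 and 63.8. Its 1.01 in Line 6 fell short of 2-fold with any of the 3 other scalings, and in Line 3 it was 0.18. Gp5 was below the array median in wild type and Line 3, so it passed the filter only through Line 6, where it was highest.

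Among the transcription factors, Gata1, the main GATA factor of megakaryocytes and red cells, read 773 for wild type, 1416 for Line 6 and 1187 for Line 3, higher by 0.86 and 0.61. Gfi1b, a repressor needed for platelet formation, was higher by 0.50 and 0.61. Nfe2, which drives the last steps of platelet release, was lower, by -0.54 and -0.62. Zfpm1, the GATA1 cofactor FOG1, differed by -0.09 and 0.03, and Runx1 by 0.14 and 0.44, where the Line 3 sign of Zfpm1 and the Line 6 sign of Runx1 turned after centring. Their probe sets also disagreed. The dimmer one of Zfpm1 gave -0.17 and -0.24. The dimmer ones of Runx1 gave 0.13, -0.22, -0.05, 0.02 and 0.16 in Line 6, while all were higher than wild type in Line 3. None of these 5 factors passed 2-fold in either line.

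The other megakaryocyte genes, 78 listed by function and 64 of them above the filter, included 7 at least 2-fold higher in Line 6 and 2 lower, or 10.9% and 3.13% beside the background of 2.57% and 2.41%. In Line 3, 9 were higher and 2 lower, or 14.1% and 3.13% beside 3.57% and 4.46%, and none passed 2-fold between the lines. The median over the 64 was 0.16 in Line 6 and 0.14 in Line 3, beside 0.06 and 0.12 over all genes. Of the higher genes, 4 in each line were below the median of the wild type array and were kept only through a transgenic array. Those genes entered the list through arrays where they read high. Without the filter, 8 of 72 genes were higher in Line 6 and 9 in Line 3, beside 679 and 692 of all 18193 genes. Stem and progenitor markers, which share 5 genes with the 64, had 3 of 14 at least 2-fold higher in Line 6, 6 of 14 in Line 3 and none lower in either. Their summed intensity over 15 genes was 26155 for wild type, 30520 for Line 6 and 34548 for Line 3, and their part in these counts was not tested. The Line 6 split of 7 to 2 became 3 to 1 after quantile normalization, 2 to 2 after cyclic loess and 2 to 3 after centring on array medians, while in Line 3 it was 9 to 2 under each. Of all genes past 2-fold in Line 6, 51.6% were higher, a share of 34.0%, 32.3% and 23.5% under those scalings. Between the lines the share was 30.9% and moved to 42.3%, 41.6% and 57.9%.

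Over all genes, 2.57% were higher by 2-fold and 2.41% lower in Line 6, and 3.57% and 4.46% in Line 3. By role, 1 of 12 granule and secreted genes was higher by 2-fold in each line. In Line 6, 1 was lower, and in Line 3 none was. The higher one was Angpt1, an angiopoietin that megakaryocytes share with stem cells, which read 175 for wild type, 632 for Line 6 and 729 for Line 3, differences of 1.76 and 1.96. Thbs1, the granule protein thrombospondin 1, read 1087, 448 and 601, differences of -1.25 and -0.84, and its other probe set gave -1.54 and -1.37. It was lower in the lines while Pf4, of the same granules, was higher. The remaining 10 genes of the group lay inside 2-fold in both lines.

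The receptor group went both ways, with 3 of 13 genes higher and 1 lower in Line 6, and 2 higher and 2 lower in Line 3, against 2.57% of all genes higher and 2.41% lower in Line 6 and 3.57% and 4.46% in Line 3. Gp5, Esam and Itga2 were below the median of the wild type array and were kept only through a transgenic array. Cd9, a tetraspanin of platelets and many other cells, read 2068, 1022 and 738, differences of -1.01 and -1.47, and the Line 6 value was inside 2-fold after quantile normalization (-0.98). Ptgir, the prostacyclin receptor, was lower by -0.77 and -1.28. Itga2, the collagen-binding integrin chain, read 57.6, 106 and 196, higher by 0.73 and 1.53. Esam, an adhesion molecule also on the stem cell and endothelial surface, was higher by 1.21 and 1.40 from 29.7 in wild type. Tbxa2r, the thromboxane receptor, was higher by 1.04 and 0.64. In Line 6, Tbxa2r fell short of 2-fold with any of the 3 other scalings and Esam under centring and cyclic loess. Cd9 and Ptgir were highest in wild type, where the summed neutrophil markers were highest too. Of those 16 markers, 4 (Elane, Mpo, Prtn3 and Ctsg) were highest in Line 3.

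Of 19 factors, 1 was higher in Line 6, 2 were higher in Line 3 and none was lower in either. Over all genes, 2.57% were higher and 2.41% lower in Line 6, and 3.57% and 4.46% in Line 3. Meis1 (1.03 in Line 6 and 1.11 in Line 3) and Gata2 (0.62 and 1.05) passed 2-fold in at least 1 line, and both are also stem and progenitor genes. Meis1 in Line 6 was short of 2-fold with all 3 other scalings.

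The cytoskeleton and signalling group had 2 of 20 genes higher in Line 6 and 4 in Line 3, and none lower in either. Over all genes, 2.57% and 3.57% were higher in Line 6 and Line 3, and 2.41% and 4.46% were lower. Rab27b and Alox12 lay below the median in wild type and were kept only through the transgenic arrays. Rab27b, a GTPase of platelet granule release, read 37.2, 143 and 177 on its brightest probe set, differences of 1.58 and 1.86. Its 3 other probe sets were below the filter, and the median over all 4 gave 0.24 and -0.05. Alox12, the platelet 12-lipoxygenase, was higher by 1.11 and 1.13 on 1 probe set. Its dimmer probe set, below the filter, gave -0.36 and -0.97, and the median of both was 0.38 and 0.08. In Line 6, Alox12 fell short of 2-fold with any of the 3 other scalings. Prkcq, a protein kinase C of platelets and T cells, was higher by 0.87 and 1.23, and Lat, an adaptor shared by the same cells, by 0.99 and 1.15.

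**Figure D3:**
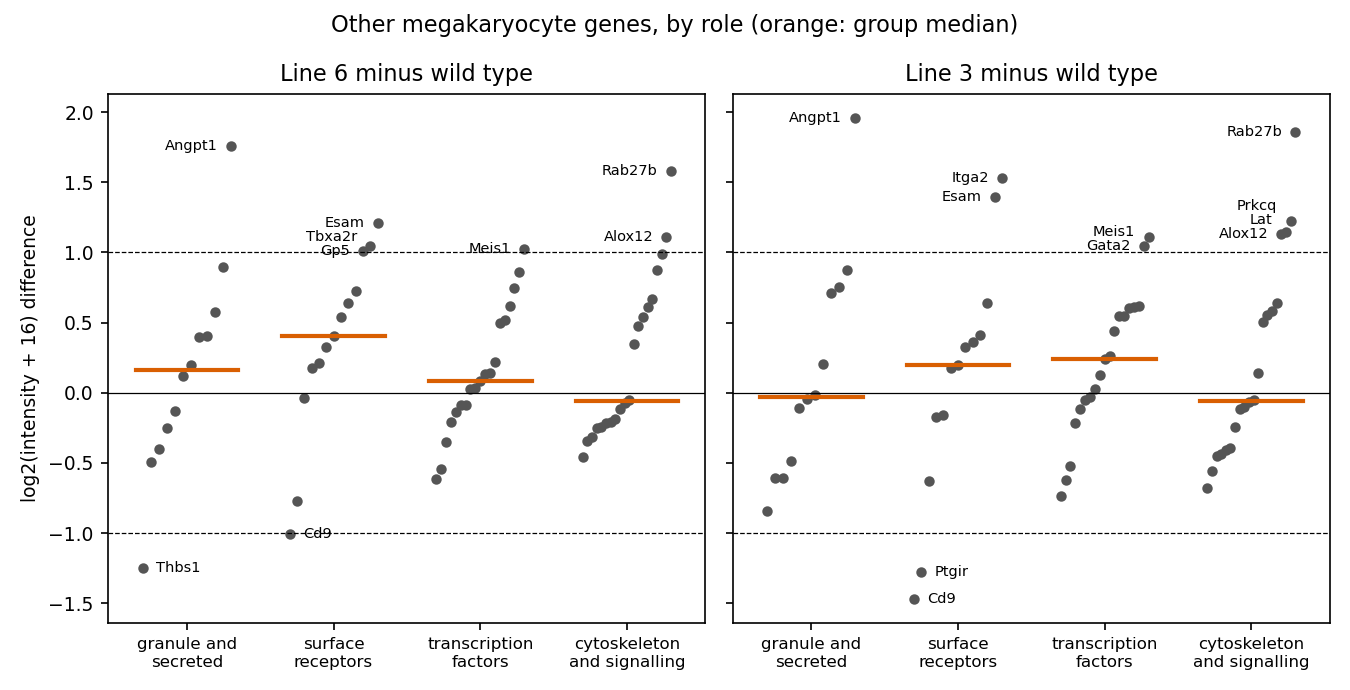
Differences from wild type on the log2(intensity + 16) scale of the 64 other megakaryocyte genes above the filter, sorted within 4 role groups, 1 point per gene; orange bars are group medians and dashed lines mark 2-fold, past which genes are named. The receptor medians were 0.40 in Line 6 and 0.19 in Line 3, and those of cytoskeleton and signalling genes were -0.06 in each line.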

How the data were processed

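Per the labels' protocols, RNA came from a Trizol extraction, was amplified (Ovation Pico WTA System) and carried a biotin label, from 3 ug. The authors deposited linear intensities, 1 for each probe set of each array. How they were summarised, and with what software, stands as not given in the sources used here. A scaling by the authors shows in the deposited intensities, whose trimmed mean (2% off each end) was 497 on every array.

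Probe sets were named through the platform annotation, with symbols updated by Entrez identifier for 34741 of 34945 probe sets that had 1 symbol. Another 932 had several symbols and 9160 were not listed. Intensities were taken as log2(intensity + 16). The probe set with the highest mean on that scale stood for its gene. Genes at or above the array's median on 1 or more arrays were kept, 10864 of 18193. Differences are on the log2 scale, and a gene counted as higher or lower at 2-fold. No test was run. The procedure was tested on simulated data. The members and lists were chosen with earlier results of these data known. Named from the longer list were genes past 2-fold in any comparison, and the partners and main regulators of the members. Kit, Cd34, Camp, Slc4a1, Xist, Eif2s3y and the single markers named as exceptions within a list were named with their values known.

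Python 3.11.15, numpy 2.4.6, pandas 2.3.3, matplotlib 3.10.9, R 4.3.3 and limma 3.58.1 (quantile normalization and cyclic loess) were used. Precision is limited by the number of arrays.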

Additional observations from a re-analysis of the deposited data

Results flagged for a closer look

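The differences of Ppbp from wild type had opposite signs in the lines, 0.89 in Line 6 and -0.029 in Line 3, each on 1 array. The Line 3 value lies close to 0, and that contrast of the lines was not tested.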

How the results depend on the processing

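The 11 alternatives were 3 other scalings, 2 other filters, 2 other choices of probe set, pseudocounts of 1 and 64, and limits of 1.5-fold and 3-fold. The count of members past 2-fold in Line 6, 1 as reported, was 0 after centring on array medians and 0 at the limit of 3-fold, and was 3 at 1.5-fold. At 1.5-fold the counts were 1 in Line 3 and 2 between the lines, where 0 passed 2-fold. Centring moved the median of all genes by -0.24 in Line 6 and by 0.20 between the lines. No called member changed sign. Gp9, inside 2-fold throughout, changed sign in Line 6 and between the lines under each of the 3 scalings.

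For the other megakaryocyte genes, each count past the limit (2-fold unless named) in either direction is followed by the share of all genes past the limit in that setting. In Line 6, 9 of 64 (4.98% of all genes) became 4 after quantile normalization (4.80%), 5 after centring (5.63%), 4 after cyclic loess (4.87%), 3 with the filter at percentile 75 (3.17%), 3 with a pseudocount of 64 (2.92%), 21 at 1.5-fold (16.2%) and 1 at 3-fold (1.21%). In Line 3, 11 (8.03%) became 4 with the filter at percentile 75 (6.01%), which left 43 of the 64 genes, 7 with a pseudocount of 64 (5.24%), 26 at 1.5-fold (25.3%) and 2 at 3-fold (2.32%). Between the lines, 0 (2.29%) became 1 after centring (2.40%), 1 without a filter (4.58%) and 4 at 1.5-fold (9.57%). Lower counts at percentile 75 follow in part from fewer genes, and the cause of the others was not tested. Low intensity limits Gp6, Treml1 and, in part, Vwf.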
